A study of Mus musculus with 2 samples.

Results

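In olfactory sensory neurons (OSNs), the odour-detecting neurons of the nose, 1975 chromatin domain boundaries lay near protein-coding genes with midpoints outside all such genes. A boundary was included when it was on an autosome, when the midpoint of its 5 kb bin lay outside every protein-coding gene body, and when that midpoint was more than 10 kb and at most 100 kb from the nearest transcription start site (TSS) of a protein-coding gene. They are called near-gene intergenic boundaries here, and they are 1975 of the 7169 boundaries on the autosomes and of the 7576 in the whole list. The nearest TSS lay at a median of 33.1 kb, with an upper quartile of 57.1 kb. Position alone chose them, so neither the boundary score nor the sequence was used.

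The boundaries come from in situ Hi-C, in which DNA cut by DpnII is ligated to whatever lies beside it in the fixed nucleus, so that sequencing the joined ends counts contacts. The cells were Olfr17-positive (P2) mature OSNs, sorted by fluorescence from the olfactory epithelium of adult P2-GFP mice of the 129P2/OlaHsd strain and of mixed sex, with no treatment. The 2 biological replicates, of 23000 and 20000 cells, form 1 group, and the boundaries were called once on their combined contacts. There is therefore no spread between replicates, the number of mice behind each is not stated, and the number of contacts is unknown. The list holds no expression, so markers of mature OSNs could not be checked.

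Domain boundaries divide a chromosome into stretches whose parts meet each other more often than they meet the neighbouring stretch. In the loop extrusion model, cohesin reels in DNA until it is stopped, most often by the zinc finger protein CTCF bound to a motif that points towards the arriving cohesin. Transcription can also push cohesin along a gene towards its 3' end. The boundaries are set against 3 features below: the 3' ends of the neighbouring genes, the starts of non-coding genes, and CTCF motifs.

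As examples of sequence near these boundaries, the CTCF match nearest to the midpoint is given for the highest-scoring ones with a match within 10 kb. It is also given for those beside 3 genes of OSN biology. The listed matches lay 0.033 kb (Olfr1423) to 9.23 kb (Jrkl) from the midpoint. Those at Lrrc8b, Vmn1r40, Olfr1423 and Lbr lay inside the 5 kb bin of the boundary and the others outside it. The search used the 4 spellings CCANNAGAGGGC, CCANNAGATGGC, CCANNAGGGGGC and CCANNAGGTGGC on both strands of GRCm38, which together make the core consensus of CTCF. A match is a sequence and not measured binding. Each line is written 5' to 3' on the strand of the match with the core in capitals and 20 bases on each side. It is named by the gene with the nearest protein-coding TSS. The sequences were read from the RefSeq copy of GRCm38, which is of the C57BL/6J strain.
Pop4 (chr7:38306155-38306206, minus strand): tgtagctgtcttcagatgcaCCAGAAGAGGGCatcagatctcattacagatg
Fam174b (chr7:73646166-73646217, plus strand): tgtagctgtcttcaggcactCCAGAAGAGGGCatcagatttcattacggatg
Olfr1423 (chr19:12027508-12027559, minus strand): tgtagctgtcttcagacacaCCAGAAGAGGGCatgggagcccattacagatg
Ncam2 (chr16:81190345-81190396, minus strand): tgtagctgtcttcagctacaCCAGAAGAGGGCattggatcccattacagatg
Ppp2r5c (chr12:110401572-110401623, minus strand): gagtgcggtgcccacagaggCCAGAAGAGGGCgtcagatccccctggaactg
Lrrc8b (chr5:105399947-105399998, minus strand): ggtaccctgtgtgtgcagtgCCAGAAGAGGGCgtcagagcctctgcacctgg
Gm527 (chr12:64897519-64897570, minus strand): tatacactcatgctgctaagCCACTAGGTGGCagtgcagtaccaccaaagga
Jrkl (chr9:13231700-13231751, plus strand): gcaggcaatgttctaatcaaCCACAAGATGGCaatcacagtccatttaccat
Vmn1r40 (chr6:89680355-89680406, plus strand): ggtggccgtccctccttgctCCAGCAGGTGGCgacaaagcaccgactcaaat
Ebf2 (chr14:67211892-67211943, plus strand): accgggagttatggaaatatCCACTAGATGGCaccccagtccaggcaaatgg
Lbr (chr1:181888936-181888987, plus strand): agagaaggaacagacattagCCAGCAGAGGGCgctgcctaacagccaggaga
The first 4 lines are near copies of each other over their whole length, although they lie on 3 chromosomes, and the next 2 share the core and a few letters after it. The last 5 have other cores. The near copies lie in soft-masked sequence, which is what the reference writes in lower case as repeats, and they return below. In the lines printed here, lower case marks the flanks and does not show masking.

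Near-gene intergenic boundaries were mostly Strong, the class that the authors' list gives to scores above 0.5. Of the 1975, 1226 were Strong (62.1%, exact binomial 95% interval 59.9 to 64.2%, counting error only) and 749 were Weak, against 54.6% Strong among all autosomal boundaries. Per autosome the Strong share was 61.8% ± 4.85 (SD over 19 autosomes). It was 66.2% ± 5.59 for boundaries at most 10 kb from a TSS, 56.1% ± 5.04 for those in gene bodies farther from a TSS and 26.2% ± 4.90 for those in gene deserts, more than 100 kb from a TSS. The scores have no unit stated by the authors. Over near-gene intergenic boundaries they ran from 0.2003 to 3.87 with a median of 0.663 and quartiles of 0.376 and 1.19. Their median score per autosome was 0.671 ± 0.0669, compared with 0.695 ± 0.0686 near TSSs, 0.579 ± 0.0617 in gene bodies and 0.314 ± 0.0203 in deserts. It was higher than in deserts on all 19 autosomes, higher than in gene bodies on 16 and higher than near TSSs on 5, so against deserts the per-autosome values do not overlap and against positions near TSSs they largely do. No p-value is given for this or any comparison below, because both replicates form 1 list and positions in 1 map are not replicates.

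**Figure D1:**
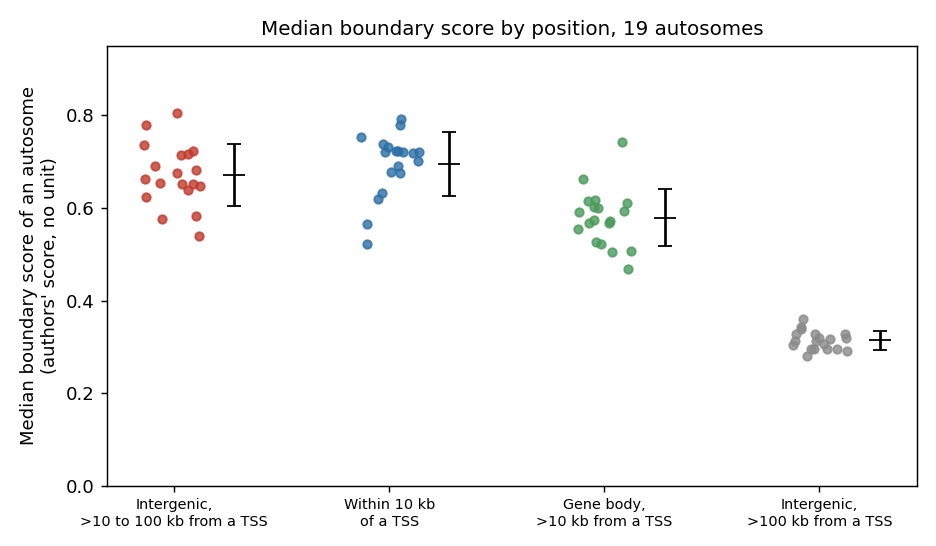
Median boundary score of each of the 19 autosomes (points, authors' score without unit) by position of the boundary, with the mean and SD over autosomes in black. Near-gene intergenic boundaries (red) average 0.671 and lie among those near TSSs, at 0.695, while all desert values lie lower, at an average of 0.314.

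High scores were more frequent among near-gene intergenic boundaries than at the other positions. A score of 2 or more was held by 124 near-gene intergenic boundaries (6.28%), against 3.92% of all autosomal boundaries. The share was 4.67% near TSSs, 2.53% in gene bodies and 1.44% in deserts. Near-gene intergenic boundaries, 27.5% of the autosomal list, were 4 of the 10 autosomal boundaries with the highest scores, 16 of the highest 50, 47 of the highest 100 and 216 of the highest 500. Among Strong boundaries alone, the median was 0.999 for near-gene intergenic ones, 0.954 near TSSs, 0.870 in gene bodies and 0.905 in deserts.

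Boundaries were frequent at these positions. The rule was met by 100196 of 478887 autosomal 5 kb bins without unknown bases, and 1973 of those bins (1.97%) were boundaries, against 1.5% of all autosomal bins. In units of 1000 bins that is 19.7 at near-gene intergenic positions, 27.8 near TSSs, 11.8 in gene bodies and 9.29 in deserts. The near-gene intergenic rate exceeded that in gene bodies and deserts on all 19 autosomes, and that near TSSs on none. By autosome it averaged 19.7 ± 2.22 per 1000 bins, with the highest values on chromosomes 15 (23.9) and 18 (23.5) and the lowest on chromosomes 14 (16.1) and 7 (16.5). Chromosome 1 held most of these boundaries, 164, and chromosome 19 fewest, 47.

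The rate was lower far from the nearest TSS than close to it, and the scores of 3 distance classes differed little. Between 10 and 25 kb it was 22.2 per 1000 bins, between 25 and 50 kb 20.6, and between 50 and 100 kb 16.7. The median scores in these classes were 0.702, 0.639 and 0.663, and the Strong shares 63.6%, 62.0% and 60.4%. The score differences are smaller than the SD over autosomes within a class, which was 0.102 to 0.133. In steps of 10 kb the decline was not even: the rate was 15.6 per 1000 bins at 60 to 70 kb, 20.3 at 70 to 80 kb and 13.3, the lowest, at 90 to 100 kb. Over all 9 steps the median scores ran from 0.565 at 70 to 80 kb to 0.789 at 60 to 70 kb and the Strong shares from 54.4% to 69.8%.

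**Figure D2:**
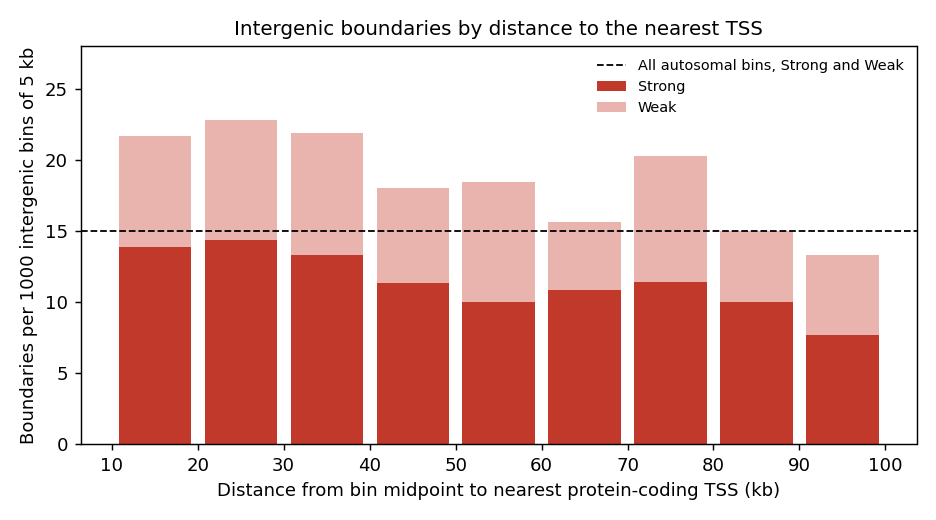
Boundaries per 1000 intergenic 5 kb bins in steps of 10 kb from the nearest protein-coding TSS, split into Strong (dark) and Weak (light), with the rate over all autosomal bins as a dashed line at 15.0. The rate is 21.7 to 22.8 within the first 30 kb of the range and 13.3 in its last step.

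Boundaries at the limits of the rule had scores from 0.233 to 1.97. Just inside 10 kb were a Strong boundary 10.0 kb from Arg1, the gene of the urea cycle enzyme arginase (score 0.578), and a Weak one 10.0 kb from Cystm1 (0.414). Just outside lay intergenic boundaries 9.95 kb from Zfp608 (0.233) and 9.94 kb from Fam76a (1.06). Just inside 100 kb was one at 99.8 kb from Slc1a4 (1.19), and just outside were those at 100.3 kb from Emc2 (1.61) and 100.5 kb from Hira (1.97).

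The 10 highest-scoring near-gene intergenic boundaries were all Strong, scored from 2.85 to 3.87 and lay on 8 chromosomes. The highest, at 3.87, was that of chr7:38310001-38315000 (GRCm38) between Pop4, a subunit of the RNA-processing enzyme RNase P, and Gm5591. It was 41.1 kb from the Pop4 TSS, and the next boundary to its right was 1495 kb away. On chromosome 12 a boundary of score 3.25 lay between Fscb and Gm527, 15.4 kb from the Gm527 TSS. A second one on chromosome 12, also of score 3.25, lay 126 kb beyond the 3' end of Dio3, the thyroid hormone deiodinase gene at the end of an imprinted domain, and 39.6 kb before Ppp2r5c, a regulatory subunit of protein phosphatase 2A. The domain on the Dio3 side of it was 835 kb long and the one on the Ppp2r5c side 190 kb.

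Several others stood at the end of long stretches without coding genes. The boundary of score 3.19 on chromosome 9 lay 20.1 kb from the 3' end of Jrkl in an interval of 2338 kb that reaches to Cntn5, the gene of a neuronal adhesion protein. The one of score 3.02 on chromosome 10 lay 43.9 kb before Hsf2, a heat shock transcription factor, in an interval of 1084 kb that begins at Gja1, the gene of connexin 43. Shorter intervals held the others. On chromosome 5 a boundary of score 3.02 lay 18.3 kb before Lrrc8b, a subunit of a volume-regulated anion channel, and 3.75 kb from the start of the lincRNA gene Gm26519. On chromosome 6 one of score 2.98 lay 6.97 kb beyond the 3' end of Txnrd3, a thioredoxin reductase, and 25.0 kb before Vmn1r40, a pheromone receptor gene. The last 3 lay between Chd2, a chromatin remodeller, and Fam174b (2.92), between Osbp, an oxysterol-binding protein, and Olfr1423 (2.86), and between Cyp4b1 and Efcab14 (2.85). At the other end of the range, the 2 lowest scores were 0.2003 for the boundary between Efcab1 and Gm21897 on chromosome 16 and 0.2005 for that between Sar1b and Jade2 on chromosome 11, the second with 7 CTCF core matches within 10 kb.

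A CTCF core match lay near most of these boundaries. Of the 1975, 1217 had one within 10 kb (61.6%, exact 95% interval 59.4 to 63.8%), against 47.0% of all bins that met the positional rule, a ratio of 1.31. Per autosome the share was 62.5% ± 6.58 for boundaries and 47.2% ± 4.06 for bins, and it was higher for boundaries on all 19 autosomes. Over all autosomal 20 kb windows it was 41.8%. A stricter and longer CTCF consensus, of 14 letters, matched near 326 boundaries (16.5%), against 6.53% of bins under the rule and 4.91% of all windows, a ratio of 2.53. Boundaries near TSSs had a core match in 72.7% of cases, those in gene bodies in 62.5% and those in deserts in 31.8%. With the stricter consensus these shares were 15.2%, 16.9% and 6.96%. The shares over bins of those classes are not given here, so these values do not rank the classes.

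Boundaries with a CTCF core match had higher scores than those without. The median was 0.753 (quartiles 0.421 and 1.23) with a match within 10 kb and 0.535 (0.326 and 1.02) without, and the order was the same on all 19 autosomes. It was 0.690 with 1 match, 0.795 with 2 and 0.804 with 3 or more, and the number of boundaries per 1000 bins was 14.2 with no match, 21.0 with 1, 29.0 with 2 and 36.9 with 3 or more. The ranges overlap widely, and 38.4% of the boundaries had no core match within 10 kb. Among these were the boundaries before Hsf2 and between Cyp4b1 and Efcab14, whose nearest matches lay 20.2 and 23.4 kb away, and one of score 2.74 between 6330403K07Rik and Nlrp1a, where the nearest match lay 10.6 kb away.

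GC content moved with the matches. The median GC content of a boundary's bin was 42.8% and that of the bins under the rule 42.5%. With the bins under the rule cut into 3 equal classes by GC content, 42.4% of boundaries and 30.02% of bins in the lowest class had a core match. The shares were 58.6% and 47.6% in the middle class and 80.6% and 63.4% in the highest. Within each class the median score was higher with a match than without: 0.690 against 0.472, 0.716 against 0.592, and 0.783 against 0.604. DpnII, the enzyme used for the Hi-C, cuts at GATC, and the median number of GATC sites was 12 per bin for boundaries and 12 for bins under the rule. The soft-masked share had a median of 31.0% for boundaries and 31.4% for bins.

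**Figure D3:**
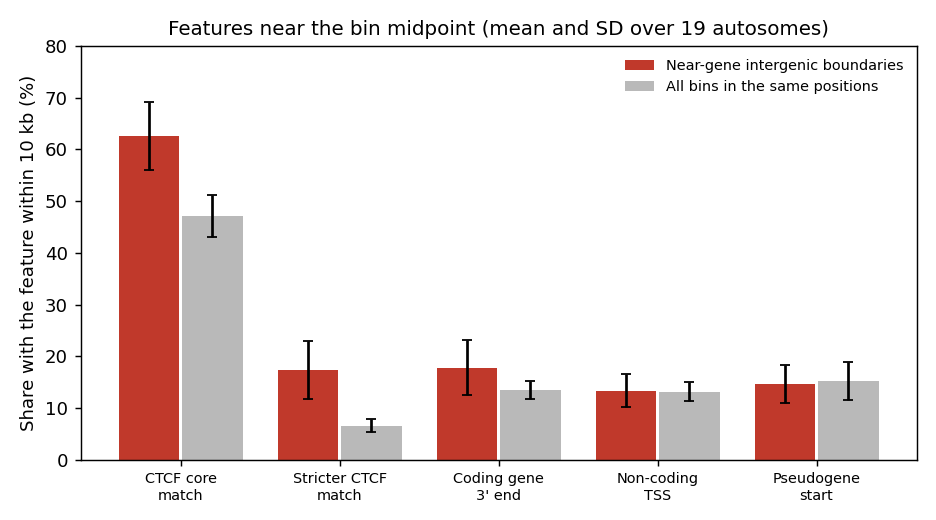
Share of near-gene intergenic boundaries (red) and of all bins in the same positions (grey) with a feature within 10 kb of the midpoint, as mean and SD over 19 autosomes. CTCF core matches (62.5% and 47.2%) and stricter matches (17.4% and 6.61%) differ most, and non-coding TSSs (13.4% and 13.2%) hardly differ.

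The matches had a preferred direction. Of 1235 core matches within 10 kb to the right of the midpoint 55.9% were on the plus strand, and of 1254 to the left 48.8%, a difference of 7.07 percentage points. The mean over autosomes was 7.67 ± 11.4 points, positive on 14 of 19, so single autosomes scatter widely. Around all bins under the rule the shares were 49.9% and 50.2%. Within 25 kb the difference was 10.2 points, positive on 17 autosomes. For the stricter consensus the plus strand held 62.1% on the right and 42.6% on the left, a difference of 19.5 points. Plus-strand matches on the right and minus-strand matches on the left point away from the boundary, into the domain on their own side. A minus match on the left together with a plus match on the right was found within 10 kb of 179 boundaries (9.06%) and 4.53% of bins, and the opposite pair at 139 boundaries (7.04%) and 4.45% of bins.

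**Figure D4:**
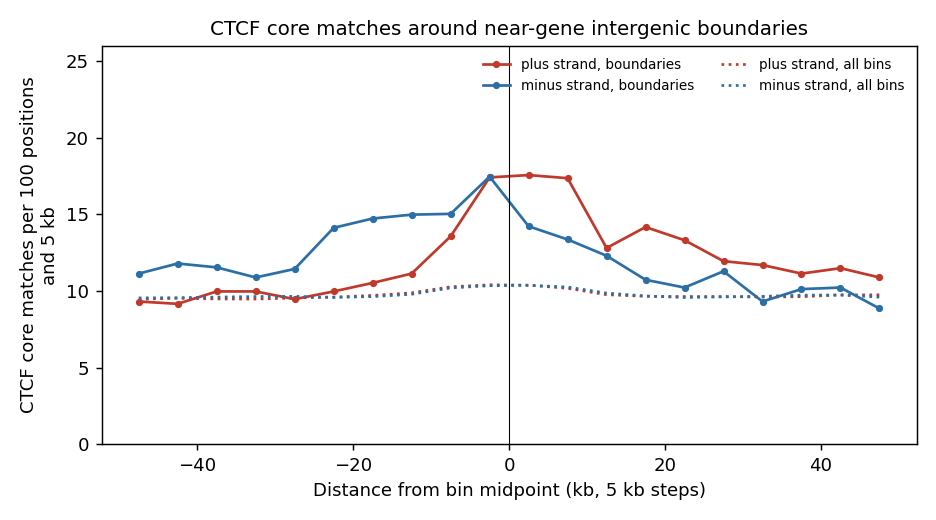
CTCF core matches per 100 positions in 5 kb steps around the midpoint of the near-gene intergenic boundaries (solid) and of all bins under the rule (dotted), by strand. Around the boundaries minus-strand matches outnumber plus-strand ones in every step on the left and plus-strand matches outnumber minus-strand ones in every step on the right, out to 50 kb, by 345 to 344 in the step next to the midpoint on the left. The bins have 9.47 to 10.4 matches of either strand in every step.

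A single word made up most of the core matches. The word CCAGAAGAGGGC was found 48355 times among the 84922 core matches on the autosomes (56.9%), and 99.6% of its copies lay in soft-masked sequence. The 7 letters TCTTCAG stood in the 20 bases before 50.4% of its copies, as in the first 4 lines above. B2 elements, a family of short repeats found in rodents and spread by retrotransposition, are known to carry CTCF motifs, but no repeat annotation was used here and the copies were not assigned to a family. Of the matches printed above, those at Pop4, Fam174b, Olfr1423, Ncam2, Ppp2r5c and Lrrc8b have this word and lie in soft-masked sequence, and those at Gm527, Jrkl, Vmn1r40, Ebf2 and Lbr have other words and lie outside it.

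Core matches outside soft-masked sequence were the more concentrated at the boundaries. Such a match lay within 10 kb of 658 boundaries (33.3%), against 19.5% of bins, a ratio of 1.70, while a soft-masked match lay near 910 (46.1%), against 36.2% of bins, a ratio of 1.27. Both shares were higher for boundaries than for bins on all 19 autosomes. The strand difference was 14.3 percentage points outside soft-masked sequence (14.4 ± 16.0 over autosomes, positive on 14) and 3.40 points inside it (4.28 ± 11.9, positive on 12). For matches with TCTTCAG in the 20 bases before them the strand difference was 8.21 points (6.24 ± 18.9, positive on 12). For matches without these letters it was 6.61 points (7.25 ± 13.2, positive on 13). The median score was 0.816 for the 658 boundaries with a match outside soft-masked sequence, 0.680 for the 559 with soft-masked matches alone and 0.535 for the 758 with none. Per autosome these medians were 0.827 ± 0.139, 0.655 ± 0.128 and 0.542 ± 0.0750. The splits by soft-masking and by TCTTCAG were chosen after the sequences had been seen.

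Gene 3' ends were closer to the boundaries than to the bins. A protein-coding 3' end lay within 10 kb of 346 boundaries (17.5%, exact 95% interval 15.9 to 19.3%), against 13.5% of bins under the rule, a ratio of 1.30. The share was higher for boundaries on 16 of 19 autosomes, with a mean of 17.8% ± 5.33 for boundaries and 13.5% ± 1.81 for bins. The median distance to the nearest 3' end was 35.8 kb for boundaries and 44.7 kb for bins. The nearest gene end was a 3' end at 47.8% of boundaries and 43.7% of bins. Score hardly moved with it: the median was 0.707 with a 3' end within 10 kb and 0.659 without, higher with one on 10 of 19 autosomes.
The highest-scoring boundaries within 1 kb of a 3' end were at Utp11 and Pou3f1, at Ogfod3 and Uts2r, and at Npl and Dhx9. The first, with a score of 2.00 on chromosome 4, lay 0.66 kb from the 3' end of Utp11, a factor of ribosome assembly, which faces Pou3f1, a POU transcription factor of neural and glial cells, across 17.5 kb. Its nearest core match, 2.26 kb to the left, lay outside soft-masked sequence and is shown with the core in capitals.
Utp11 (chr4:124675215-124675266, minus strand): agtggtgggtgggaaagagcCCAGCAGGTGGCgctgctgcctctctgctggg
The core is the same word as at Vmn1r40, with other flanks. The second boundary, with a score of 1.88 on chromosome 11, lay 0.091 kb from the 3' end of Ogfod3, and Uts2r, the urotensin receptor gene, ended 15.5 kb away. The third, with a score of 1.77 on chromosome 1, lay 0.515 kb from the 3' end of Npl and 14.8 kb from the TSS of Dhx9, an RNA helicase gene.

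The rate of boundaries differed between combinations of the 3 features. With a core match, a 3' end and a non-coding TSS all within 10 kb there were 39.8 per 1000 bins, from 52 boundaries with a median score of 0.574. With a core match and a 3' end but no non-coding TSS there were 31.1 boundaries per 1000 bins, with a core match alone 24.8, with a 3' end alone 16.1 and with none of the 3 features 14.2. The median scores in the last 4 groups were 0.802, 0.723, 0.563 and 0.533, from 204, 827, 81 and 605 boundaries. A non-coding TSS alone went with 12.4 boundaries per 1000 bins and a median score of 0.490, from 63 boundaries. Added to a core match it went with 22.6 per 1000 bins, under the rate of a core match alone, and with the highest median score of the 8 combinations, 0.822, from 134 boundaries. Added to a 3' end it went with 13.9 per 1000 bins, from 9 boundaries.

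The strands of the flanking genes differed little from those around bins. The genes on both sides ran in the same direction (tandem) at 1030 boundaries (52.2%), away from the interval (divergent) at 578 (29.3%) and towards each other (convergent) at 361 (18.3%), and 6 boundaries had no coding gene on 1 side. The shares among bins under the rule were 53.6%, 29.0% and 17.0%. Convergent pairs had the highest median score, 0.744 against 0.646 for divergent and 0.644 for tandem pairs. They also had the shortest intervals, with a median width of 79.3 kb against 182 and 122 kb, and the most core matches, 69.3% against 57.3% and 61.4%. The score was higher with convergent flanks than without on 11 of 19 autosomes.

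Non-coding genes did not stand out. A TSS of a non-coding gene lay within 10 kb of 258 boundaries (13.1%), against 12.9% of bins under the rule, a ratio of 1.01, and the share was higher for boundaries on 11 of 19 autosomes. Long non-coding genes gave 175 boundaries (8.86%), against 9.27% of bins. Most of them were lincRNA genes, which lay near 137 boundaries (6.94%) and 7.74% of bins. Antisense genes lay near 27 boundaries (1.37%) and 1.02% of bins. Small non-coding genes lay near 91 boundaries (4.61%) and 4.23% of bins, among them miRNA genes at 34 boundaries (1.72%) and 1.26% of bins. Pseudogene starts lay near 284 boundaries (14.4%) and 15.4% of bins. The median score was 0.697 with a non-coding TSS and 0.659 without, higher with one on 12 of 19 autosomes. Over 5 equal classes of score, from low to high, the share with a non-coding TSS was 9.87%, 14.7%, 14.7%, 15.2% and 10.9%.

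Of the 5 highest-scoring boundaries with a non-coding TSS within 10 kb, those before Lrrc8b and between Chd2 and Fam174b are described above. The non-coding genes were the lincRNA Gm26519 and the snRNA gene Gm26176, the second at 6.41 kb. The next, with a score of 2.62, lay on chromosome 12 between Tmem121 and Adam6b, beside the immunoglobulin heavy chain locus, 3.35 kb from the snRNA gene Gm25622. One of score 2.48 lay on chromosome 18 between Zmat2 and Pcdha1, the first gene of the clustered protocadherins, 1.61 kb from the miRNA gene Gm23424. The last, with a score of 2.45, lay on chromosome 1 between Col5a2, a collagen gene, and Wdr75, 0.605 kb from the snoRNA gene Gm23974.

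**Figure D5:**
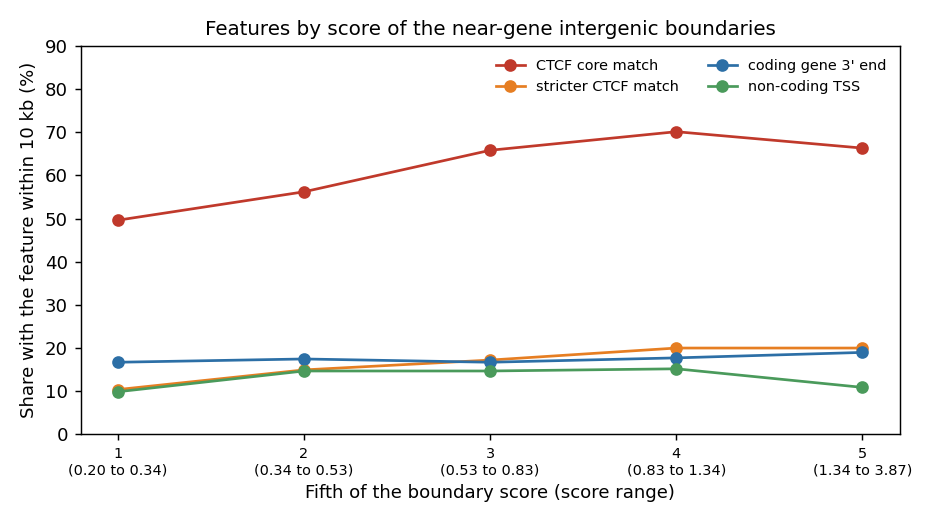
Share of near-gene intergenic boundaries with a feature within 10 kb of the midpoint, in 5 equal classes of the boundary score (395 boundaries each, score range under each class). CTCF core matches are at 49.6% in the lowest class, 70.1% in the fourth and 66.3% in the highest, and stricter matches at 10.4% in the lowest and 20% in the highest, while 3' ends stay between 16.7% and 18.99%.

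Most intergenic intervals that held such a boundary held a single one. The 1975 boundaries lay in 1885 intervals between coding genes, apart from the 6 without a coding gene on 1 side, and 1801 intervals held 1 and 84 held 2. No interval held more. The rule limits this number, since only positions within 100 kb of a TSS count and the next boundary was at least 60 kb away. The interval was 133 kb wide at the median boundary and 139 kb at the median bin. From narrow to wide intervals, there were 21.5 boundaries per 1000 bins up to 50 kb, 21.1 between 50 and 100 kb, 17.8 between 100 and 200 kb, 18.8 between 200 and 500 kb and 20.1 over 500 kb. The median scores in these 5 classes were 0.647, 0.666, 0.715, 0.588 and 0.649. The pairs that included the highest scores lay between Satb1, a chromatin organiser, and Kcnh8 on chromosome 17 (2.56 and 0.234), Asrgl1 and Scgb2a2 on chromosome 19 (2.49 and 0.729), and Col5a2 and Wdr75 on chromosome 1 (2.45 and 0.201). They were followed by those between Oxgr1 and Mbnl2 on chromosome 14 (2.25 and 0.251) and between Ghr, the growth hormone receptor gene, and Fbxo4 on chromosome 15 (2.25 and 0.210). Of the 5 partners with the lower score, that between Asrgl1 and Scgb2a2 was Strong and the others Weak.

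The distance to the next boundary was like that of other boundaries. It had a median of 265 kb (quartiles 185 and 390 kb) for near-gene intergenic boundaries, counting both sides, and 260 kb (180 and 390 kb) for the other autosomal ones. The shortest was 60 kb. The next boundary was itself a near-gene intergenic one in 31.6% of 3929 cases, while these make up 27.5% of the autosomal list.

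Genes of OSN biology were read from 5 lists. Of all 20807 autosomal protein-coding genes, 3492 (16.8%) flanked a near-gene intergenic boundary. A gene flanks a boundary when it is the next coding gene on 1 side, at any distance. Of 23 mature OSN genes 4 did. Ncam2, an adhesion protein of OSN axons, had a Strong boundary of score 2.56 at 13.2 kb before its TSS, where 2096 kb without a coding gene begin on the other side, and its core match is among the near copies above. Cartpt, a neuropeptide gene, had a Strong one (1.497) 56.0 kb beyond its 3' end. Cngb1, a subunit of the olfactory cyclic nucleotide-gated channel, flanked a Strong one (0.692) and Pde1c, a calcium-dependent phosphodiesterase of the cilia, a Weak one (0.387).

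Of 27 OSN regulators on autosomes 6 flanked such a boundary. Ebf2, an early B cell factor of the family that binds OSN enhancers, had a Strong one (1.61) 25.8 kb before its TSS. Its core match, printed above, lay 4.42 kb to the right of the midpoint on the plus strand and outside soft-masked sequence. Lbr, the lamin B receptor that tethers heterochromatin to the nuclear envelope and is low in OSNs, had a Strong one (0.963) 44.5 kb before its TSS, with 4 core matches within 10 kb. The 3' end of Enah lay nearer to that boundary, 8.88 kb away on the other side. Nfib, a nuclear factor I gene, had a Weak one (0.262) 71.8 kb before its TSS and 21.2 kb from the 3' end of Zdhhc21. The core match nearest to that boundary, 5.76 kb to the right of the midpoint, is another soft-masked near copy of the first 4 lines above. Such copies thus also lie near a boundary of low score. Nfia and the cohesin genes Rad21 and Smc3 flanked boundaries of scores 0.714, 0.521 and 0.380 that lay nearer to the TSS of another gene.

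Genes of immature OSNs and axon guidance flanked such boundaries in 13 of 27 cases (48.1%). Some of the boundaries lay far from the listed gene and nearer to the TSS of another gene. The distance was 1580 kb for Epha5, 794 kb for Cntn6 and 462 kb for Gap43. The genes of this list lie beside wide intervals, and they had 23.4 bins under the rule per gene beside them, against 4.82 over all coding genes. Per 1000 of those bins they had 22.2 boundaries (exact 95% interval 12.2 to 36.9, counting error only), against 19.7 over all genes, which lies within that interval. Nrp1 and Nrp2, the neuropilins that receive semaphorins during axon sorting, had Strong boundaries at 31.1 kb (0.901) and 10.8 kb (0.861) before their TSSs. Stmn2, a microtubule regulator of growing axons, had one at 11.9 kb (0.601).

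Genes of progenitors and patterning gave 8 of 26, with 15.1 boundaries per 1000 bins (7.58 to 26.9). The boundaries flanked by Sox11 and Otx2 lay 797 and 319 kb from these genes and nearer to the TSS of another gene. Id4, an inhibitor of basic helix-loop-helix factors, had one at 26.3 kb (0.952), and Sox2, a factor of stem and progenitor cells, one at 37.9 kb (0.930). Of 26 genes of other cells of the epithelium 3 flanked such a boundary. Those nearest to a listed TSS were at Vim, an intermediate filament gene (0.550), and at Sult1c1, a sulfotransferase gene (0.286).

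Between olfactory receptor (OR) genes such boundaries were few and weak, and between an OR gene and another gene they were not. With an OR gene on both sides there were 13 boundaries in 1536 bins, or 8.46 per 1000 (exact 95% interval 4.51 to 14.4), and 2 of the 13 were Strong. With an OR gene on 1 side there were 25 in 970 bins, or 25.8 per 1000 (16.7 to 37.8), and 17 of the 25 were Strong. With neither an OR nor a vomeronasal receptor gene the rate was 20.01 per 1000 (19.1 to 20.9) and 62.7% were Strong. The median scores were 0.300, 0.769 and 0.667, and the range between 2 OR genes, 0.224 to 0.827, lay within the range with an OR gene on 1 side, 0.212 to 2.86.
The highest of those between OR genes, on chromosome 2 between Olfr1177-ps and Olfr1178 (0.827), had a core match 1.02 kb from its midpoint, which also met the stricter consensus.
Olfr1177-ps (chr2:88356456-88356507, plus strand): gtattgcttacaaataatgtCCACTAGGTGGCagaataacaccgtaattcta
The core is the same word as at Gm527. The next 2 lay between Olfr272 and Olfr270 on chromosome 4 (0.573) and between Olfr444 and Olfr441 on chromosome 6 (0.380), and neither had a core match within 10 kb. With an OR gene on 1 side the highest were those of Olfr1423 and Osbp (2.86), Olfr291 and Zfand6 on chromosome 7 (2.62) and Olfr209 and Gabrr3 on chromosome 16 (2.15). The last 2 had no core match within 10 kb.

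Bins with receptor genes on both sides also differed in sequence. Core matches lay within 10 kb of 23.3% of bins between OR genes, 41.6% of those with an OR gene on 1 side and 48.0% of those with neither family. Among boundaries the shares were 15.4%, 52% and 62.7%. Between OR genes the share was thus lower for boundaries than for bins, from 13 boundaries. The median soft-masked share of the bins was 61.0%, 44.7% and 30.7%. Their part in the lower rate between OR genes was not tested. Vomeronasal receptor genes gave the same order, with 8.70 boundaries per 1000 bins (4.87 to 14.3) and 2 of 15 Strong between 2 of them, and 20.1 per 1000 (12.5 to 30.6) and 14 of 21 Strong with 1 on 1 side. Between vomeronasal receptor genes 33.3% of boundaries and 19.3% of bins had a core match within 10 kb. With 1 such gene on 1 side the shares were 28.6% and 35.5%. The near-gene intergenic boundary closest to Olfr17 itself was a Weak one (0.371) between Gvin1 and Olfr693 on chromosome 7. It was far from Olfr17, at -445.72 kb, where the minus sign means towards lower coordinates. Boundaries at other positions were not considered for this gene.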

How the data were processed

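The 2 replicates were mapped to GRCm38 and their contacts combined, and the authors called boundaries on the joint matrix, per the labels' design text. The deposited list gives each boundary a 5 kb bin, a class and a score. The boundary score is unitless in the deposited list, where every Weak score is at most 0.4996 and every Strong one at least 0.5002. For the caller, its settings and the aligner, no name is given in the sources used here.

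Genes came from GENCODE M21 (20807 protein-coding genes on 19 autosomes) and sequence from RefSeq GRCm38, the build of the list. TSSs are gene 5' ends, positions are bin midpoints, and coordinates are 1-based. Every autosomal 5 kb bin without unknown bases was described in the same way, and bins under the positional rule are the background. Immunoglobulin and T cell receptor genes were left out of the non-coding genes. Errors are SDs over autosomes or exact (Clopper-Pearson) intervals, which treat bins as independent. Python 3.11.15 with numpy 2.4.6, pandas 2.3.3 and scipy 1.17.1 was used. Distances, classes and motif searches were tested on simulated positions.

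The boundaries and gene lists were chosen with earlier results of these data known. Boundaries described singly are those with extreme scores, those nearest to list genes, 3' ends, non-coding TSSs, OR genes and the limits of the rule, and intervals with most boundaries. Those without a core match were chosen after their values were seen. Boundaries of chromosome X were not analysed here. A few boundaries that the rule for single descriptions names are not reported here. The alternatives concern the TSSs, the gene bodies, the class, the distances, the consensus and each autosome.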

Additional observations from a re-analysis of the deposited data

How the results depend on the processing

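Of 81 recomputed values, 63 stayed within the 95% binomial interval, the SD over autosomes or 1.5 times the count of the value reported, the ranges with each autosome left out among them. The other 18 moved. Leaving out an autosome kept at least 1811 of the 1975 boundaries, so its lowest and highest values could move little. Strong boundaries alone gave 1226 boundaries, 12.2 per 1000 bins, a median score of 0.999 and a core match within 10 kb at 67.2%. With the starts of all transcripts as TSSs, a 3' end within 10 kb was found at 14.9% of boundaries (11.3% of bins), and with the whole bin outside gene bodies at 13.4% (10.3% of bins), where 16.5% had convergent flanks. Outside bodies of genes of all types, 10.2% had a non-coding TSS (9.93% of bins). At 20 to 50 kb from a TSS, 31.4% had divergent flanks (29.3% of bins). Within 5 kb the shares were 9.22% for 3' ends, 7.29% for non-coding TSSs and 43.5% for core matches (7.00%, 6.81% and 29.6% of bins), and within 25 kb 38.9%, 31.9% and 82.9% (31.6%, 30.2% and 72.5% of bins). The stricter consensus gave 16.5% and a strand difference of 19.5 points, and core matches outside soft-masked sequence, chosen after seeing the data, gave 33.3%. The non-coding TSS share was smaller for boundaries than for bins with the whole bin outside gene bodies (12.8% and 12.9%) and at 20 to 50 kb (12.2% and 12.9%), and the divergent share was so without receptor genes (29.7% and 29.8%). Leaving out boundaries beside receptor genes, also chosen after seeing the data, moved no value beyond those ranges. No replicate could be left out, and no paired analysis was possible because both replicates form 1 list. The unknown number of contacts limits which weak boundaries could be called.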

Other observations

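Near-gene intergenic boundaries beside genes of 10 families were counted per 1000 bins under the rule beside them (exact 95% intervals, counting error only, and no test). Over all coding genes there were 19.7 (18.8 to 20.6). Homeobox, paired-box and T-box genes, transcription factors of embryonic patterning that were taken by symbol, had 26.3 (19.4 to 34.8), from 47 boundaries of which 31 were Strong. Solute carrier genes had 23.0 (18.4 to 28.5) and Zfp zinc finger genes 19.2 (14.9 to 24.4), the second with 48 of 67 Strong. Cytosolic ribosomal protein genes had 21.2 (11.9 to 34.8) with 12 of 15 Strong, and Cyp genes 20.6 (11.8 to 33.3) with 5 of 16 Strong. Cadherin and protocadherin genes had 23.2 (14.2 to 35.6), Fox genes 18.5 (10.2 to 30.9), Sox genes 17.9 (8.20 to 33.6), serpin genes 14.8 (5.44 to 31.9) and keratin genes 38.6 (16.8 to 74.7), the last from 8 boundaries. The intervals of these 10 families all overlap that of all coding genes.

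Boundaries inside a gene of another type, such as a lincRNA gene or a pseudogene, numbered 222 of the 1975 (11.2%), against 13.5% of bins under the rule. Their median score was 0.570, and that of the others 0.676.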
